A study of Arabidopsis thaliana with 42 samples.

Results

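The response of the Arabidopsis proteasome mutant rpn12a-236 to 6 days of darkness was measured by RNA-seq in 6 of the 42 libraries of the series, 3 from leaves darkened individually for 6 d (individually darkened leaves, IDL) and 3 from leaves taken at 0 d in the light, all harvested at 8 am. These 6 libraries were picked by their sample labels. The comparison and the gene lists below were chosen with earlier results of these data known, so list counts describe and are no independent support. The mutant carries an EMS-induced stop codon (Q236=>Stop) in RPN12a in the Columbia (Col-0) background, and both its groups carry that allele. Plants grew in short days, and the darkened leaves stayed attached to a rosette that remained in the light. Each library came from a pool of leaf blades from independent plants, with 3 biological replicates per group. Wild-type Col-0 (WT) leaves at 0 d in the light, at 6 d of IDL and at 6 d in the light, with 3 libraries each, served as reference, and the 6 h, 1 d and 3 d IDL libraries of the mutant entered the same fit. The mutant is a single allele that had been backcrossed and still carries other homozygous EMS variants on chromosome 1. It had no libraries at 6 d in the light, so darkness and 6 days of ageing cannot be told apart within the mutant.

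The deposited values are z-scores: for each gene, the normalized and variance-stabilized count of a library minus the gene's mean over the 42 libraries, divided by its SD over them. A difference of 1 is therefore 1 SD of that gene over the whole series. Such values hold neither fold changes nor absolute levels, and sequencing depth is lost in them. Differences are not comparable between genes as folds. Differences below are the mean of the 6 d IDL libraries minus the mean of the 0 d light libraries, in z-score units, with the standard error of the fit. A gene was called as risen or fallen at a Benjamini-Hochberg adjusted p of at most 0.01 in limma's moderated test over all genes tested.

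Darkening a single leaf of an illuminated plant cuts off its own sugar supply and sets off senescence in that leaf. During senescence chloroplasts are dismantled, chlorophyll is broken down, proteins are degraded by vacuolar proteases, autophagy and the 26S proteasome, and the nitrogen they release is exported to other organs. The 26S proteasome degrades proteins tagged with ubiquitin. It consists of a 20S core that holds the proteolytic sites and a 19S regulatory particle that recognizes and unfolds substrates, and RPN12a is a subunit of the lid of the 19S particle.

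The position of the stop codon is shown because it defines the allele that all mutant libraries share. In the RefSeq annotation of TAIR10.1, RPN12a (AT1G64520) lies on chromosome 1, and codon 236 of its 267 codons starts at position 23958022 on the forward strand, in coding exon 6 of 6. The reference sequence of chr1:23958010-23958036 around it, with codon 236 in capitals, reads as follows.
RPN12a, codon 236: tttgttgtcttcCAGaaagccaaagaa
A C-to-T change turns this glutamine codon CAG into the stop codon TAG, which removes the last 32 codons of the reading frame. The RPN12A transcript had z-scores of 1.37, 1.28 and 1.19 at 0 d and of 1.33, 1.43 and 1.33 at 6 d IDL. The groups overlapped, and the difference of 0.0821 (SE 0.149) was not called (adjusted p = 0.657). The WT means were -0.834 at 0 d and -0.415 at 6 d IDL, below all 6 mutant libraries. A stop codon so close to the end of the reading frame need not lower the transcript, so its level does not check the labels.

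The 3 replicates of 6 d IDL were more scattered than those of 0 d. The SD among the 3 replicates had a median over 17536 genes of 0.412 for 6 d IDL and of 0.285 for 0 d light. Replicate 2 of 6 d IDL stood apart, with a root mean square deviation from its group mean of 0.621 against 0.439 and 0.440 for the other replicates. Some results that rest on it are therefore also given without it, and for others only the single libraries are shown. Marker genes of leaf cell types were compared between the groups. The 4 mesophyll markers were LHCB1.3, RBCS1A, RCA and LHCB1.1, photosynthesis genes like those counted below, so their values cannot check the tissue. All 4 mesophyll markers fell and their mean z-score per library went from 0.970 to 1.05 at 0 d to between -1.36 and -0.828 at 6 d IDL, while all 5 epidermis markers fell from means of 0.686 to 0.805 to between -1.48 and -1.20. Of the 6 phloem markers 4 rose and 2 fell, of the 4 xylem markers tested 2 fell, of the 4 trichome markers 3 fell, and of the 5 guard cell markers 1 rose and 1 fell. In whole leaves, fewer cells of a type and less RNA per cell cannot be told apart, and the part of cell composition in the results below was not tested.

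A large share of the transcriptome of the mutant differed between 6 d IDL and 0 d light. Of 23112 genes tested, 11392 (49.3%) were called, of which 5364 (23.2%) rose and 6028 (26.1%) fell. The rises ranged from 0.514 to 4.04 with a median of 1.92, and the falls from -4.39 to -0.570 with a median of -1.98. The 3 IDL libraries all lay above the 3 light libraries for 6793 genes (29.4%) and all below them for 7443 genes (32.2%). Counts of list members below are to be read against these shares. Keeping WT leaves in the light for 6 d, the only measure of ageing here, changed 10 of 22974 genes (0.0435%; 3 or 0.0131% rose and 7 or 0.0305% fell), with 4814 at an unadjusted p below 0.05. This count is unstable, at 537 in a fit of all 42 libraries, 53 among genes with no library at the floor, 0 in the 6 libraries alone, 1 when WT 0 d light replicate 1 or 2 or WT 6 d light replicate 1 or 2 was left out, and 3 without WT 0 d light replicate 3. The genes that rose in the mutant had a median difference of 0.107 in those WT leaves, and the genes that fell had a median of -0.228.

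Genes for the breakdown of branched-chain amino acids were among the largest rises. Genes were ranked here only among those with a symbol in the reference (9954 of 27050 genes in the table), with no library at the floor and no overlap between the groups, so genes without a symbol can have moved as far or further. BCE1B1, a subunit of the branched-chain keto acid dehydrogenase complex, had z-scores of -1.45, -1.49 and -1.71 at 0 d and of 2.43, 1.91 and 3.15 at 6 d IDL, a rise of 4.04 (SE 0.334, adjusted p = 5.89e-07). BCAT2, a branched-chain amino acid transaminase, had -2.56, -2.46 and -3.00 at 0 d and 1.14, 0.815 and 1.44 at 6 d IDL, a rise of 3.80 (SE 0.251, adjusted p = 2.07e-07). Every IDL library lay above every light library for both genes. DIN3, the acyltransferase subunit of the same dehydrogenase complex, rose by 3.70, and ALDH6B2, the methylmalonate-semialdehyde dehydrogenase of valine breakdown, by 3.54. AGT2, annotated as an alanine:glyoxylate aminotransferase, had -1.78, -0.773 and -0.571 at 0 d and 2.51, 2.20 and 3.79 at 6 d IDL, a rise of 3.87 (SE 0.462, adjusted p = 1.04e-05). The other genes among the 10 largest rises so ranked were ORG4 (3.73), the rhodanese homologue RDH2 (3.61), the MADS-box factor SEP4 (3.60), the splicing factor RS2Z32 (3.58) and the peroxisome biogenesis gene PEX22 (3.56). For AGT2, RDH2, SEP4 and PEX22 the WT difference was 0.0549, 0.0204, 0.0859 and -0.417, none of them called. The SD that scales a gene takes in the WT libraries, so a gene that moves as far in WT has a larger SD. The ranking thereby favours genes with little change in WT, and their small WT differences are no independent result.

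**Figure D1:**
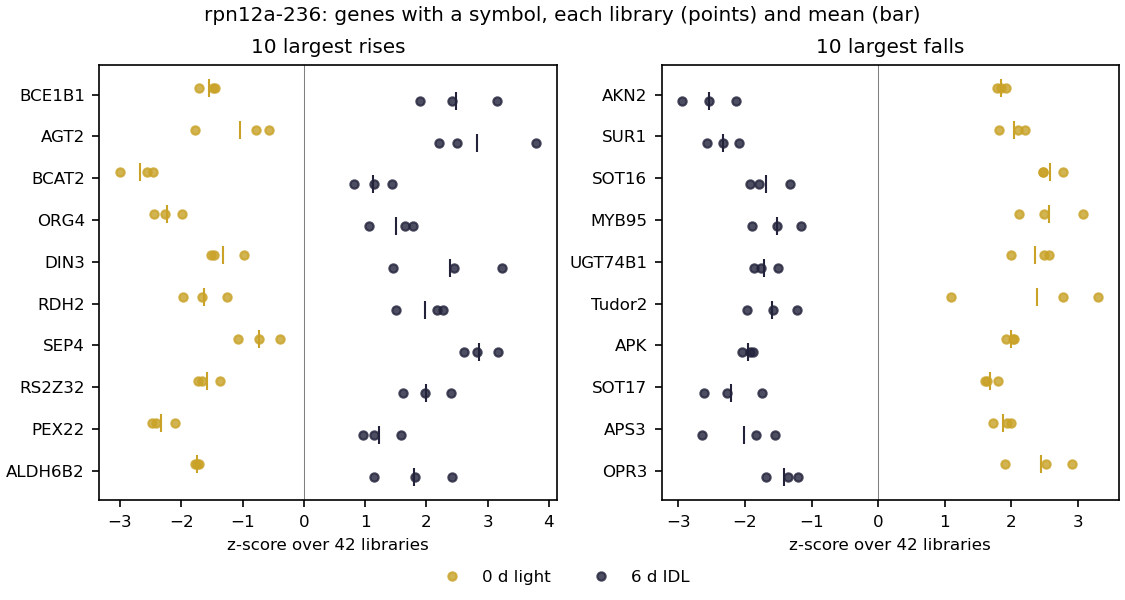
z-score over the 42 libraries (horizontal axis) of the 10 genes with the largest rise and the 10 with the largest fall in rpn12a-236 among genes with a symbol, with 1 point per library and a bar at the mean of each group of 3. The groups do not overlap for any of the 20 genes, which were chosen for that and for their size; the 0 d libraries of BCAT2 lie between -3.00 and -2.46 and its IDL libraries between 0.815 and 1.44.

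Among genes with a symbol, ranked in the same way, the largest falls included genes for the synthesis of glucosinolates, the sulfur-rich defence compounds of the Brassicaceae, and for the activation of the sulfate they carry. AKN2, an adenosine phosphosulfate kinase that makes the sulfate donor, had z-scores of 1.84, 1.78 and 1.92 at 0 d and of -2.94, -2.54 and -2.13 at 6 d IDL, a difference of -4.39 (SE 0.250, adjusted p = 1.73e-07). SUR1, the C-S lyase of the glucosinolate core pathway, had 1.81, 2.10 and 2.20 at 0 d and -2.57, -2.09 and -2.34 at 6 d IDL, a difference of -4.37 (SE 0.313, adjusted p = 2.71e-07). The light and dark libraries of both genes were far apart. The sulfotransferases SOT16 (-4.26) and SOT17 (-3.89), the glucosyltransferase UGT74B1 (-4.06), the kinase APK (-3.95) and the ATP sulfurylase APS3 (-3.89) were also among the 10 largest falls so ranked, together with MYB95 (-4.08), Tudor2 (-3.98) and OPR3 (-3.86). Lists of these pathways were drawn up after their values were seen, so their counts describe the pathways and are no independent support. Of 32 genes of glucosinolate synthesis and transport 29 fell and 0 rose, with a median of -3.08 against -0.0295 over all genes tested. The genes not called were MYB51, MYB122 and the transporter GTR2. The falls took in the chain elongation gene MAM1 (-3.56), the cytochromes CYP79F1 (-3.32) and CYP83B1 (-3.62) and the regulators MYB28 (-2.89) and MYB34 (-2.87). Of 10 genes of sulfate activation and reduction 9 fell and APS4 rose (1.80).

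The response of the glucosinolate genes was compared between the genotypes. Their list was prompted by a ranking that favours genes with little change in WT. Its gap to WT and its interactions are thereby built in in part and are no independent result. In WT 15 of the 32 genes fell and 3 rose, with a median of -0.634, and the difference in response, tested as the interaction of genotype and darkening, was called for 24 of 32 genes, all lower in the mutant (over all genes, 21.4% were called in this test, 10.8% higher and 10.6% lower). SUR1 fell by 1.06 in WT, and its interaction was -3.31 (adjusted p = 1.56e-06). The genotypes already differed in SUR1 at 0 d, with means of 2.04 in the mutant and 0.406 in WT. At 6 d IDL the means were -2.33 and -0.657. MAM1 had a WT difference of 0.77 that was not called. In the mutant the median of the list was -1.24 after 6 h, -1.65 after 1 d and -2.14 after 3 d. In WT leaves kept in the light for 6 d it was 0.00436.

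Transcripts of the photosynthetic apparatus fell in the mutant. All 44 nuclear genes tested for photosystem and antenna subunits fell, with a median of -2.13, from LHCB3 (-2.61), an antenna protein of photosystem II, to LHCB4.3 (-1.06). LHCB3 had 1.14, 1.26 and 1.17 at 0 d and -1.73, -1.20 and -1.34 at 6 d IDL, and RBCS1A, a small subunit of Rubisco, had 0.925, 0.960 and 0.960 against -1.39, -1.0 and -1.06. The groups were well separated for both. Of 21 genes of Rubisco and the Calvin cycle 19 fell and TKL2, a transketolase, rose (1.59). The Rubisco activase RCA fell by 2.17 and the plastid glyceraldehyde phosphate dehydrogenase GAPB by 2.36. Of 25 genes of chlorophyll synthesis 20 fell, led by HEMD (-2.73), and the protochlorophyllide reductase gene PORA rose (1.48). The WT medians of these lists were lower, at -2.98, -2.74 and -2.33. The response differed between genotypes for 11 of the 44 photosystem genes, higher in the mutant for 10. It differed for 9 of the 21 Calvin cycle genes and for 4 of the 25 chlorophyll synthesis genes, all higher. Over all genes 21.4% were called in this test, 10.8% higher and 10.6% lower. LHCB1.3 fell by 1.46 in the mutant and by 3.15 in WT (interaction 1.69, adjusted p = 0.00221), and RBCS1A by 2.10 and by 3.11 (interaction 1.01, adjusted p = 0.00114).

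**Figure D2:**
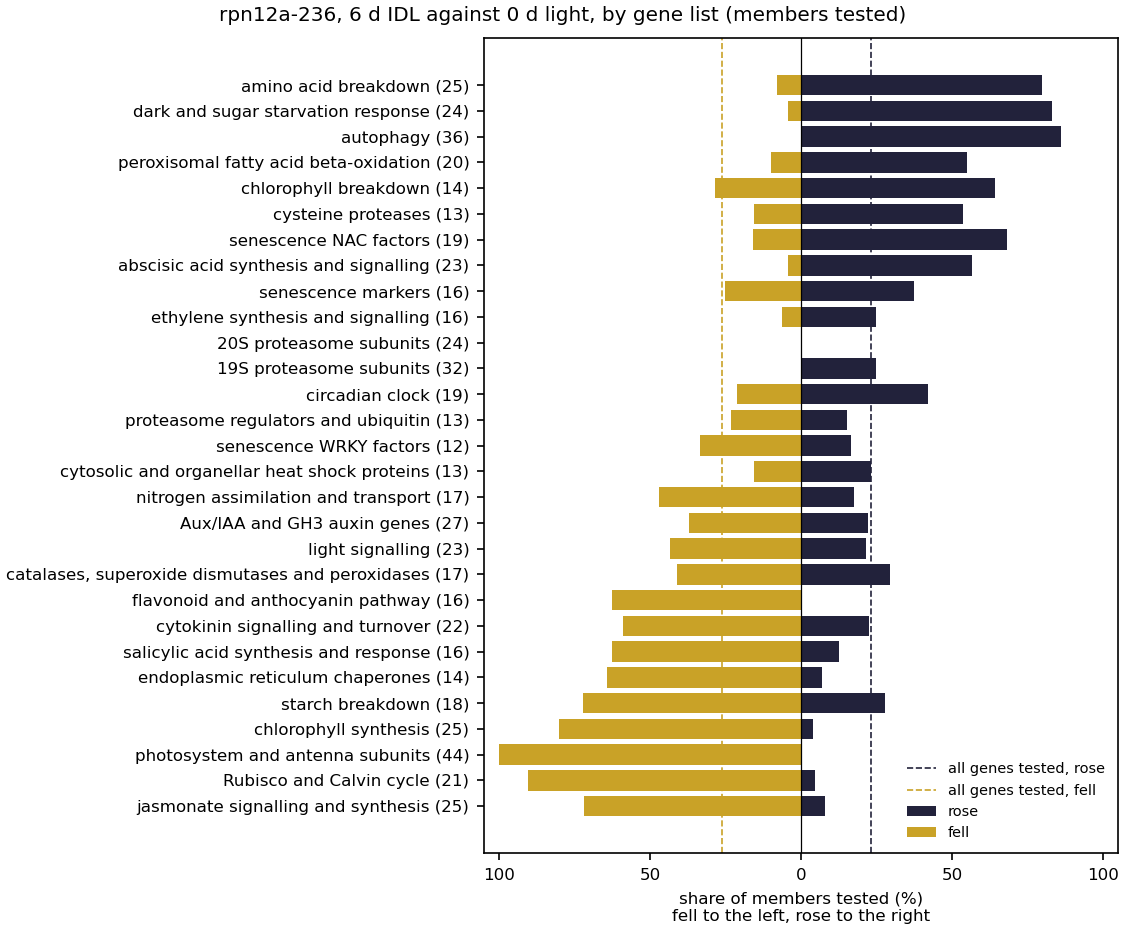
Share of tested members (horizontal axis, %) of each of the 29 gene lists that rose (right, dark) or fell (left, ochre) in rpn12a-236 between 0 d light and 6 d IDL; dashed lines mark the shares over all genes tested, 23.2% and 26.1%. Photosystem genes all fell, 31 of 36 autophagy genes rose, and 20S proteasome genes have no bar because none was called.

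Chlorophyll breakdown genes rose in part. Of 14 genes 9 rose and 4 fell, with a median of 1.52. NYC1, the chlorophyll b reductase, rose by 2.35 (z-scores -1.56, -1.29 and -1.48 against 0.865, 1.04 and 0.816), PAO, the oxygenase that opens the ring of pheophorbide, by 1.96, PPH, the pheophytinase, by 1.41, and NYE1, the magnesium dechelatase also known as SGR1, by 1.3. The IDL and light libraries of these genes did not overlap. The chlorophyllase CLH1 fell by 2.78. PPH and NYE1 rose further in WT, by 2.93 and 2.53, and their responses differed between genotypes (interaction -1.53, adjusted p = 2.74e-05, and -1.22, adjusted p = 0.00500). PAO and NYC1 had interactions of -0.497 and -0.486, which were not called.

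Most NAC transcription factors of the senescence list rose in the mutant, and among 16 senescence markers the response was lower than in WT for 7 and higher for 2. Of 19 NAC genes 13 rose and 3 fell. ORE1, a positive regulator of leaf senescence, rose by 2.02 (SE 0.152, adjusted p = 3.35e-07; z-scores -1.34, -1.42 and -1.50 against 0.571, 0.700 and 0.534) and NAP by 1.92, with interactions of -0.0306 and 0.231 that were not called. Over the list the interaction was called for 9 of 19 NAC genes, higher in the mutant for 4 and lower for 5. NAC102 rose by 2.52 and NAC090 fell by 2.55, the latter with 2 of the 15 mutant libraries at its lowest value. VNI2 fell by 1.87, with a rise of 2.14 in WT. Among 12 WRKY factors 2 rose, led by WRKY75 (1.71), for which 3 of the 15 mutant libraries were at its lowest value. Another 4 fell, led by WRKY18 (-2.98), whose 0 d libraries were scattered at 0.930, 3.16 and 3.69. SAG12, a vacuolar cysteine protease made in senescing cells, was at its lowest value of -0.612 in all 3 light libraries and at 0.746, 0.936 and 0.535 at 6 d IDL. It rose by 1.35 in the mutant and by 3.17 in WT (interaction -1.82, adjusted p = 5.24e-06). Of the senescence markers 6 rose and 4 fell, with 6 called in all at an adjusted p of 0.001. The phosphatase gene SAG113 rose by 2.27 and SEN1 by 1.90, and SAG13 fell by 2.69. The nuclease BFN1 had a difference of 0.944 that was not called, against 3.17 in WT. SAG18 rose by 1.47 (adjusted p = 0.00789), but its IDL libraries were at -0.185, 1.25 and -0.547, replicate 2 being the highest. Without that replicate the difference was 0.929 (adjusted p = 0.0257), and the call was also lost when each of the 3 light replicates was left out in turn (adjusted p from 0.0194 to 0.0248). The transcription factor bHLH093 fell by 1.0 (adjusted p = 0.00406), with all 3 IDL libraries at its lowest value, and was not called without light replicate 2 or 3 or IDL replicate 1 or 3 (-0.768 without light replicate 3, the others -1.04 to -1.0).

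Genes for self-digestion rose broadly. Of 36 autophagy genes 31 rose and 0 fell, with a median of 1.73. ATG8D, a member of the ubiquitin-like family that coats autophagosomes, had -1.74, -1.99 and -1.68 at 0 d and 0.853, 1.24 and 0.827 at 6 d IDL, a rise of 2.78 (SE 0.239, adjusted p = 7.59e-07). All IDL libraries lay above all light libraries. ATG8C rose by 2.69, the autophagy receptor NBR1 by 1.72 and ATG7, which activates ATG8, by 0.734. The WT median was 2.17, and for 8 genes, ATG7 among them, the response was lower in the mutant, and for 1 it was higher. Of 13 cysteine proteases 7 rose and 2 fell. The vacuolar processing enzyme GAMMA-VPE rose by 2.28 and the xylem protease XCP2 fell by 1.97. Of 20 genes of peroxisomal fatty acid beta-oxidation 11 rose and 2 fell, with the peroxisomal ATP carrier PNC1 rising by 3.20 and the thiolase KAT5 falling by 2.45.

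Genes listed for darkness and sugar starvation mostly rose. Of 24 genes of the dark and sugar starvation list 20 rose and 1, the trehalose phosphate synthase TPS5 (-1.92), fell, with a median of 1.99. In WT 18 of these genes rose and 2 fell, with a median of 1.52. The response was higher in the mutant for 6 of the 24 genes and lower for 1, and for 17 no difference was called. KIN10, the catalytic subunit of the energy-sensing SnRK1 kinase, rose by 2.50. ASN1, the dark-induced asparagine synthetase, had -0.187, -0.252 and -0.102 at 0 d and 1.90, 1.49 and 2.04 at 6 d IDL, a rise of 1.99 (SE 0.243, adjusted p = 1.28e-05). The groups were separate, and in WT the difference was 0.175 and was not called (interaction 1.82, adjusted p = 0.000586). BT2 rose by 2.33, although its IDL replicate 2 was at 0.823 against 2.35 and 2.47 in the others. Of 25 genes of amino acid breakdown 20 rose and 2 fell, with a median of 2.59 against 1.32 in WT. For 14 of them the response was higher in the mutant and for 2 it was lower. These 14 included the methionine gamma-lyase MGL (3.26 against -0.19 in WT) and the electron transfer oxidoreductase ETFQO (3.25 against 0.43). BCAT1 fell by 1.77. The genes in this list and in the starvation list overlap in DIN3 and DIN4.

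Nitrogen and starch genes moved in mixed or opposite directions. Of 17 genes of nitrogen assimilation and transport 3 rose and 8 fell. The nitrate transporter NRT1.7, which loads nitrate into the phloem of old leaves, had 0.243, 0.524 and 0.520 at 0 d and -2.25, -2.95 and -2.47 at 6 d IDL, a difference of -2.98 (SE 0.211, adjusted p = 2.65e-07). All IDL libraries were below the light libraries, and the WT difference was 0.226, not called (interaction -3.21, adjusted p = 1.22e-08). The cytosolic glutamine synthetase GLN1;2 fell by 2.54 in the mutant and rose by 1.74 in WT. Of 18 starch breakdown genes 13 fell and 5 rose. The beta-amylase BAM5 fell by 3.50, with 6 of the 15 mutant libraries at its lowest value. BAM4, a regulator of the pathway that lacks activity of its own, rose by 2.40.

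No gene of the 20S proteasome core was called in the darkened mutant leaf. Of its 24 genes 0 rose and 0 fell by limma's test and 3 had an unadjusted p below 0.05, with differences from -0.196 to 0.399 and a median of 0.160. All IDL libraries lay above all light libraries for 10 of the 24 genes and below them for 1 (29.4% and 32.2% over all genes). PBA1, the catalytic beta1 subunit, had 1.66, 1.57 and 1.60 at 0 d and 1.36, 1.78 and 1.15 at 6 d IDL, and the groups overlapped (-0.176, SE 0.197, adjusted p = 0.462). The WT means of PBA1 were -0.676 at 0 d and -0.45 at 6 d IDL. Such a gap between genotypes enlarges the SD of a gene, which makes its dark difference smaller in z-score units. The lack of calls therefore does not show that these genes were unchanged. Of 32 genes of the 19S particle 8 rose (25.0%, against 23.2% of all genes) and 0 fell, and 3 were called in a fit of the 6 libraries alone and 4 at an adjusted p of 0.001. DSS1-I, the gene of a small lid subunit, rose by 2.65, with IDL libraries at 0.903, 2.34 and 1.16, and RPN9A, RPT6A and RPN13 by 2.05, 1.80 and 1.73. RPN6, a lid subunit, had a difference of 0.136 that was not called (adjusted p = 0.516). PTRE1, a regulator of the proteasome, rose by 0.760 (adjusted p = 0.00164). The polyubiquitin genes went both ways, with UBQ3 rising by 2.72 and UBQ11 falling by 3.18, but these genes are near-identical copies between which reads can be split wrongly, so their single values are uncertain. In the 2 proteasome lists the response differed between genotypes for 1 of 24 and 5 of 32 genes.

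Chaperones of the endoplasmic reticulum fell. Of 14 genes 9 fell and 1, the membrane-bound factor BZIP28 (1.47), rose, with a median of -1.72 against -0.137 in WT. CRT1A, the calreticulin, had 0.684, 0.548 and 0.751 at 0 d and -1.66, -1.49 and -2.11 at 6 d IDL, a difference of -2.41 (SE 0.192, adjusted p = 4.48e-07). All dark libraries were below all light libraries. CNX1 (calnexin), HSP90.7 and BIP2, an Hsp70 of the endoplasmic reticulum, fell by 2.15, 1.94 and 1.79. The response was lower in the mutant for 6 of 14 genes and higher for 0, and CRT1A had an interaction of -1.74 (adjusted p = 0.000326). Of 13 heat shock genes of other compartments 3 rose (23.1%, against 23.2% of all genes), led by the small heat shock gene AT5G37670 (2.79). The 2 that fell (15.4%, against 26.1% of all genes) were led by HSC70-1 (-1.28). The IDL libraries of AT5G37670 were at 0.0270, 1.86 and 0.198, replicate 2 being the highest.

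Jasmonate genes fell, whereas abscisic acid genes rose. Of 25 genes of jasmonate synthesis and signalling 18 fell and 2 rose, with a median of -2.38 against -0.467 in WT. OPR3, the reductase of jasmonate synthesis in the peroxisome, had 1.91, 2.52 and 2.91 at 0 d and -1.20, -1.36 and -1.68 at 6 d IDL. Its groups were far apart, and it fell by 0.726 in WT (interaction -3.13, adjusted p = 2.83e-08). The genotypes already differed in OPR3 at 0 d, with means of 2.45 in the mutant and 0.112 in WT. At 6 d IDL the means were -1.41 and -0.615. The transcription factor MYC2 fell by 2.99, the allene oxide synthase AOS (-2.54) and the repressor JAZ1 (-1.96) fell too, while JAZ1 rose by 1.64 in WT. The repressor JAZ4 rose by 2.47 and JAZ3 was not called (0.225). The response was lower in the mutant for 13 of 25 genes and higher for 0. Of 23 genes of abscisic acid synthesis and signalling 13 rose and 1, the zeaxanthin epoxidase ABA1 (-1.06), fell. ABF4, a bZIP factor that binds abscisic acid response elements, had -1.54, -1.65 and -2.10 at 0 d and 1.37, 1.37 and 1.95 at 6 d IDL, a rise of 3.33 (SE 0.224, adjusted p = 2.24e-07). The phosphatase HAI2 rose by 2.75 in the mutant and fell by 1.20 in WT, and the synthesis gene NCED3 rose by 2.53, with -0.738 in WT that was not called. The response was higher in the mutant for 11 of 23 genes and lower for 2, and the ubiquitin ligase AIP2 was not called (0.187).

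Of 16 salicylic acid genes 10 fell, led by PAD4 (-2.92), a regulator of defence, and 2 rose, led by the isochorismate synthase ICS2 (1.45). Among 16 ethylene genes the receptors ERS2 (2.37) and ETR2, the F-box gene EBF2 and the transcription factor EIN3 (1.69) rose. The risen genes were 4 (25.0%, against 23.2% of all genes), and 1, ACS10 (-1.48), fell. Without replicate 2 of 6 d IDL these counts were 7 and 2. Of 22 cytokinin genes 13 fell (59.1%), led by the oxidase CKX4 (-3.21), and 5 rose (22.7%), led by the response factor CRF6 (1.98). In a fit of the 6 libraries alone 11 cytokinin genes were called in all. Of 27 auxin genes 10 fell (37.0%) and 6 rose (22.2%, against 23.2% of all genes). IAA13 rose by 2.26, with IDL libraries at 0.848, 2.585 and 1.583. IAA6 fell by 2.69, with all 3 IDL libraries at its lowest value.

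Of 23 light signalling genes 10 fell (43.5%) and 5 rose (21.7%, against 23.2% of all genes). GLK1, a factor that activates chloroplast genes, fell by 3.04 and the blue light receptor CRY2 rose by 1.81, while PIF4 was not called (0.315). Of 19 clock genes 8 rose, led by ELF3 (2.11), and 4 fell, led by CHE (-2.38). CCA1, which peaks at dawn, was not called (-0.154). Of 16 flavonoid genes 10 fell, led by F3H (-1.93), and 0 rose, with a median of -0.875 against -1.85 in WT. In a fit of the 6 libraries alone 4 flavonoid genes were called. The response was higher in the mutant for 11 of 18 genes and lower for 1. Of 17 genes for catalases, superoxide dismutases and peroxidases 7 fell and 5 rose. The catalase CAT2, which serves photorespiration, fell by 1.70 (WT -2.79, interaction 1.08, adjusted p = 0.000130), CAT3 rose by 1.97 and CAT1 by 2.64, and the iron superoxide dismutase FSD1 fell by 2.57.

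**Figure D3:**
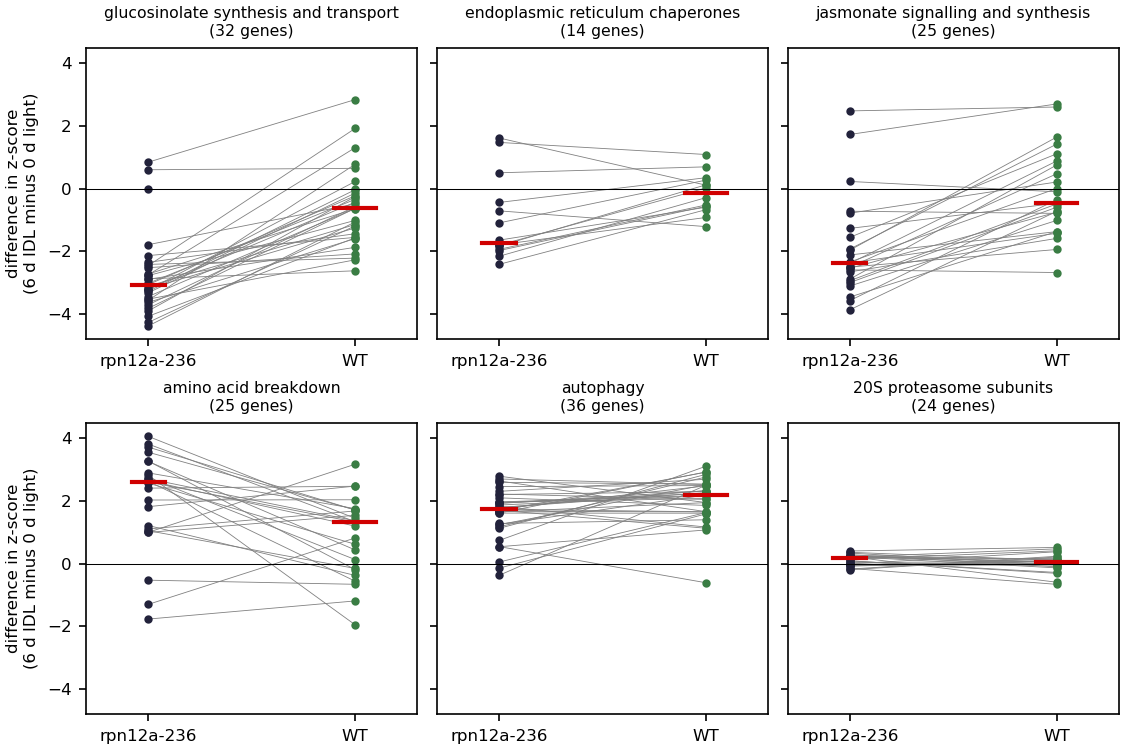
Difference in z-score between 6 d IDL and 0 d light (vertical axis) for the members of 6 gene lists, with 1 point per gene in rpn12a-236 (left) and WT (right), a line joining the same gene and a red bar at the median. Glucosinolate, chaperone and jasmonate medians were lower in the mutant (-3.08 against -0.634, -1.72 against -0.137 and -2.38 against -0.467), and the amino acid breakdown median was higher (2.59 against 1.32). The glucosinolate list was drawn up after its values were seen, from a ranking that favours genes with little change in WT.

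Most genes called in the mutant were called with the same sign in WT, where 12421 of 23275 genes (53.4%; 25.6% rose and 27.8% fell) were called against control libraries of their own. Among 22416 genes tested in both, 4322 fell in both, which is 72.1% of those that fell in the mutant and 67.2% of those that fell in WT, and 3393 rose in both, 63.7% and 57.8%. In the mutant 1760 genes rose and 1493 fell that were not called in WT, and 357 genes were called in opposite directions, all of them also called in the interaction. Counting differences of opposite sign whether or not called in WT, 1140 genes were called in both the mutant and the interaction, 523 of them with a symbol. Among those with a symbol, the 5 with the largest interaction were STE14A, ORP2B, OPT1, ARO4 and IQD33. STE14A, a methyltransferase of prenylated proteins, had 1.14, 0.697 and 0.844 at 0 d and -0.885, -1.03 and -2.24 at 6 d IDL, a difference of -2.28 against 3.02 in WT (interaction -5.30, adjusted p = 2.61e-06). ORP2B, an oxysterol-binding protein homologue, had -2.80, -2.18 and -2.06 at 0 d and 0.326, 1.06 and 1.29 at 6 d IDL, a rise of 3.24 against -1.94 in WT (interaction 5.17, adjusted p = 5.18e-09). The light and dark libraries of both genes did not overlap. OPT1, an oligopeptide transporter, fell by 2.21 (WT 2.74), the armadillo repeat gene ARO4 by 2.96 (WT 1.94), and IQD33, of a family of calmodulin-binding proteins, rose by 2.91 (WT -1.95). The genotypes were already apart at 0 d, and an interaction takes in such gaps. Means at 0 d in the mutant and WT were 0.893 and -1.78 for STE14A and -2.35 and 0.887 for ORP2B. They were 0.457 and -1.56 for OPT1, 2.61 and -1.04 for ARO4, and -1.055 and -0.0314 for IQD33. The same genes were compared in undarkened WT leaves. In WT leaves kept in the light STE14A went from a mean of -1.78 at 0 d to 0.662 at 6 d, against 1.24 at 6 d IDL, a light difference of 2.44 that was not called (adjusted p = 0.0410). The light differences of OPT1 and ORP2B were 1.44 (adjusted p = 0.0178) and -0.851 (adjusted p = 0.188), of the same sign as in WT darkness, and those of ARO4 and IQD33 were 0.472 and 0.412, none of them called. These light differences subtract the same WT 0 d libraries as the interaction on which the genes were chosen. That alone favours the same sign, so no conclusion is drawn from it.

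The genes called at 6 d were followed over the earlier times as a description. The genes that rose at 6 d had median differences from 0 d of 0.935 after 6 h, 1.34 after 1 d, 1.67 after 3 d and 1.92 after 6 d, and the genes that fell had -1.02, -1.2, -1.7 and -1.98. These genes were chosen on their difference from the 0 d libraries that all times share, which alone gives medians of the same sign in part, and no value for no change was computed, so an earlier onset cannot be read from them. The 6 h libraries were harvested at 2 pm, so the hour of the day and darkness cannot be told apart there. The lists followed different courses. Over the first 3 of these times the jasmonate median stood at -2.53, -2.34 and -2.53, and the photosystem median at -1.24, -0.445 and -1.61. The autophagy median was 0.714, 1.56 and 1.60, that of chlorophyll breakdown 0.0971, 0.627 and 0.997, and that of amino acid breakdown 1.14, 1.98 and 1.42 before 2.59 at 6 d.

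**Figure D4:**
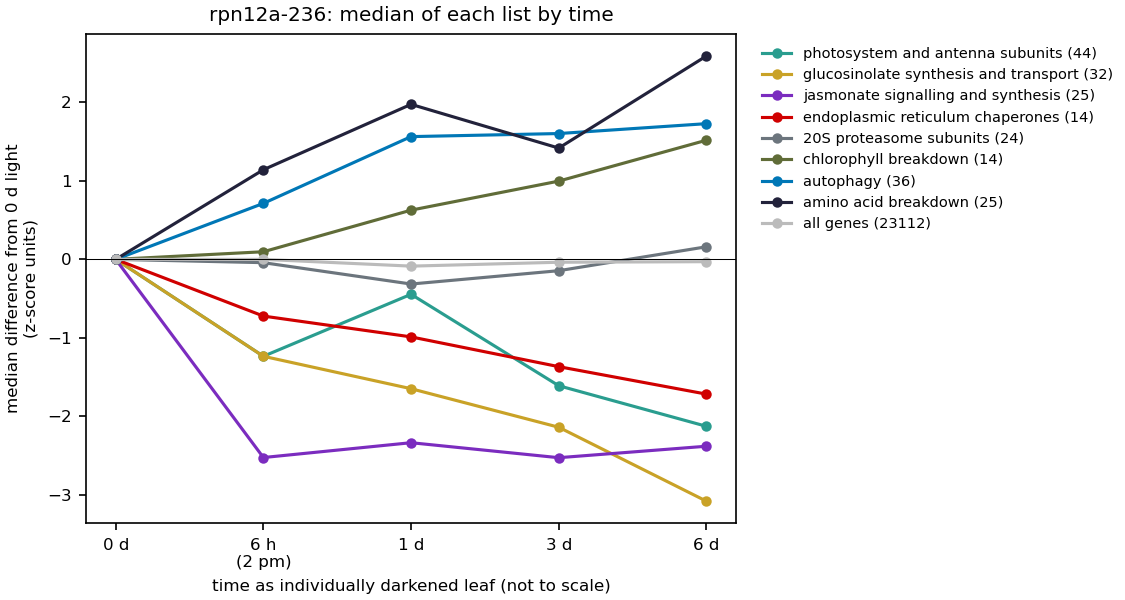
Median difference from 0 d light in rpn12a-236 (vertical axis, z-score units) for 8 gene lists and all genes, at 6 h, 1 d, 3 d and 6 d of IDL (horizontal axis, not to scale). All medians are 0 at 0 d by construction; jasmonate genes go to -2.53 by 6 h, and glucosinolate genes go from -1.24 at 6 h to -3.08 at 6 d.

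The promoters of 3 genes are shown as examples of the groups above: CRT1A for the chaperones that fell, ASN1 for the starvation genes that rose, and SUR1 for the glucosinolate genes that fell. Each is the 250 bases before the annotated start in RefSeq's TAIR10.1 annotation, written 5′ to 3′ on the strand of the gene, and all lie on the reverse strand, at chr1:21092710-21092959, chr3:17441432-17441681 and chr2:8880441-8880690. Capitals mark exact matches, on either strand, to 7 motifs: CACGTG (G-box), GATAAG (I-box core), TATCCA, AAACCCTAA (telo-box), AAAATATCT (evening element), ACGTGTC (a core of the abscisic acid response element) and TGACGTGG (an endoplasmic reticulum stress element, p-UPRE).
CRT1A: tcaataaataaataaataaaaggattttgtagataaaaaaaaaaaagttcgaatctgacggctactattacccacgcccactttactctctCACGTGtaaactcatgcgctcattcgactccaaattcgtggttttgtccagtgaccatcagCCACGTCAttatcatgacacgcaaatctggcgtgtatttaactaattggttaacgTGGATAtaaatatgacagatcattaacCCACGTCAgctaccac
ASN1: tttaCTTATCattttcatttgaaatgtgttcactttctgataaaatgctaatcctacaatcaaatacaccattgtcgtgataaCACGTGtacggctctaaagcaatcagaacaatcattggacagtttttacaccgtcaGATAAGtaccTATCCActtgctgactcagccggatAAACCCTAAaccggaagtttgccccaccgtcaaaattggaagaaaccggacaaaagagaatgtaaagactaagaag
SUR1: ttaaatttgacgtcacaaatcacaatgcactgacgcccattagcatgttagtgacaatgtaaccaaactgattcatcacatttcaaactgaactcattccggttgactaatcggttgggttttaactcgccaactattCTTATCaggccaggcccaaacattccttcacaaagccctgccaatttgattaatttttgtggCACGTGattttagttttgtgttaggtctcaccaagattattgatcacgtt
The first bases of the 2 p-UPRE matches of CRT1A lie at -98 and -16 from the start, and its G-box at -159. ASN1 has an I-box core at -246 and another at -111, a G-box at -167, a TATCCA element at -101 and a telo-box at -76. SUR1 has a G-box at -50 and an I-box core at -112.

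Over windows from 250 bases before to 50 after the start of 22870 tested genes, the p-UPRE was found in 1.74%, the G-box in 8.30%, the I-box core in 15.1% and TATCCA in 16.2%. G-box and p-UPRE matches can overlap with matches to the abscisic acid element, which was found in 4.72% of all windows, in 5.65% of genes that rose and in 5.24% of genes that fell. Of the 14 chaperone windows 35.7% held the p-UPRE and 57.1% a G-box. The 44 photosystem windows held the I-box core in 40.9% and TATCCA in 50%, and the 24 starvation windows in 50% and 37.5%, although the first of these lists fell and the other rose. The 32 glucosinolate windows held a G-box in 12.5% and the I-box core in 25.0%. The telo-box was found in 3.78% of genes that rose, 1.88% of genes that fell and 3.75% of genes not called. The evening element was found in 2.93% of all windows. These matches describe the letters of the windows and were not tested.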

How the data were processed

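RNA was sequenced from leaf blades of Arabidopsis in 42 libraries (14 conditions with 3 biological replicates). Per the submitters' processing notes and the methods, the authors checked reads with FastQC 0.11.4, removed rRNA with SortMeRNA, trimmed with Trimmomatic, quantified transcripts with kallisto 0.43.0, and normalized and variance-stabilized the counts with DESeq2 1.14.1. The authors then scaled each gene over the libraries, so the deposited values are scores. The table holds a z-score for each of 27050 genes and each library, with mean 0 and SD 1 per gene. Counts and depth cannot be recovered from it, so no count model, interval or floor for depth was used.

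Columns were assigned to samples by name, with a531 read as rpn12a-236. The lowest value of a gene was taken as its floor where at least 2 libraries shared it (9514 genes), and a gene was tested where at least 3 libraries of a fit lay above the floor. limma 3.58.1 (R 4.3.3) was fitted to the 15 mutant libraries with 1 mean per time, to the 15 WT IDL series libraries, to the 15 WT light libraries, and to the 30 libraries of both genotypes for the interaction. Genes were called at an adjusted p of at most 0.01. The test was tried on simulated data. Alternatives were a threshold of 0.001, other sets of libraries, no floor filter, only genes with no library at the floor, robust moderation, a replicate block and each replicate left out.

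Members and lists were chosen with earlier results of these data known. Genes were named by rule: the 10 largest rises and falls with a symbol, without floor values or overlap, the largest rise and fall in each list, 26 chosen genes of senescence and the proteasome, and the 5 largest interactions of opposite sign among genes with a symbol. Other genes, and the glucosinolate, sulfate and gene family lists, were chosen after their values were seen. Gene names came from RefSeq (TAIR10.1), which matched 26791 of 27050 IDs; sequences were read from that assembly only. Copies of near-identical genes can share reads. Tables and figures used Python 3.11.15, pandas 2.3.3, numpy 2.4.6, Biopython 1.88 and matplotlib 3.10.9.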

Additional observations from a re-analysis of the deposited data

Results flagged for a closer look

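The response to 6 d of darkening differed between rpn12a-236 and WT for 5223 of 24407 genes by limma's interaction test. Among the named genes past that test, with the mutant difference minus the WT difference in brackets in z-score units, the genes that rose in the mutant with a response above that of WT were BCE1B1 (2.61), AGT2 (3.82), BCAT2 (2.47), ORG4 (2.19), DIN3 (2.00), RDH2 (3.59), SEP4 (3.51), RS2Z32 (2.30), PEX22 (3.98), ALDH6B2 (1.83), NAC102 (2.49), SAG113 (1.14), DSS1-I (1.93), UBQ3 (2.42), ASN1 (1.82), BAM4 (1.74), ERS2 (1.09), ABF4 (2.42), CRF6 (1.16), IAA13 (2.00), ORP2B (5.17) and IQD33 (4.86). Genes that rose in the mutant with a response below that of WT were SAG12 (-1.82), NYE1 (-1.22), PPH (-1.53) and SAG18 (-1.92). Genes that fell in the mutant with a response below that of WT were AKN2 (-3.20), SUR1 (-3.31), SOT16 (-3.07), MYB95 (-2.03), UGT74B1 (-2.49), Tudor2 (-3.38), APK (-2.98), SOT17 (-3.63), APS3 (-3.74), OPR3 (-3.13), NAC090 (-2.07), WRKY18 (-3.14), SAG13 (-3.10), UBQ11 (-1.97), CRT1A (-1.74), NRT1.7 (-3.21), BAM5 (-2.68), GLK1 (-1.07), CKX4 (-1.42), PAD4 (-1.72), FSD1 (-1.03), STE14A (-5.30), OPT1 (-4.95) and ARO4 (-4.90). Genes that fell in the mutant with a response above that of WT were RBCS1A (1.01), LHCB1.3 (1.69) and CAT2 (1.08). CCA1 (0.738) was not called in the mutant. The ranking of the largest rises and falls on z-scores, scaled over mutant and WT libraries, favours genes that moved less in WT. An interaction also takes in any difference between the genotypes at 0 d. WRKY18 had 0 d means of 2.6 in the mutant and -0.0951 in WT, and 6 d IDL means of -0.382 and 0.0680. ASN1 had -0.180 and -0.69 at 0 d, and 1.81 and -0.518 at 6 d IDL. Dixon's test for a single sample far from the others was not run, since every group held 3 libraries.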

How the results depend on the processing

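The mutant count of 11392 genes stayed within 1.5 times under every alternative run: 8388 at an adjusted p of 0.001, 9648 in the 6 libraries alone, 12365 in 30 and 12160 in 42 libraries, and 10008 to 11242 with 1 replicate left out. The replicate numbers do not pair the libraries (correlations of same-numbered deviations 0.0321, -0.0741 and -0.00627). With a replicate block the counts were 11019 in the mutant, 5153 for the interaction, 12336 in WT darkness and 1 in WT light, and a call lost there is not a weaker effect. The interaction count was 2938 at 0.001. The count of 10 for WT light was 1 at 0.001, 537 in the fit of 42 libraries, 0 in 6 libraries, 6 without the floor filter, 53 for genes with no library at the floor, and 1 to 9 with 1 replicate left out. It was 1 without WT 0 d light replicate 1 or 2 or WT 6 d light replicate 1 or 2, 3 without WT 0 d light replicate 3, and 9 without WT 6 d light replicate 3. List counts that moved were senescence markers (6 at 0.001), 19S subunits (4 at 0.001 and 3 in 6 libraries), ethylene (9 without 6 d IDL replicate 2), cytokinin (11 in 6 libraries) and flavonoid genes (4 in 6 libraries), and the other 284 of 290 list counts were within 1.5 times. Of 882 values of named genes, 869 kept direction and call, and 13, all of WRKY18, PTRE1, SAG18 or bHLH093, lost the call with the same direction. The causes were not tested. Depth could not be read from z-scores, so no limit from depth can be given.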

Other observations

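Gene families that the lists do not cover were counted by their product names, a choice made after the values were seen. No enrichment was tested, and the counts are to be read against 23.2% risen and 26.1% fallen over all genes tested. Of 20 expansins 11 fell, 0 rose and 9 were not called, with a median of -1.50. Of 26 cellulose synthases 17 fell and 2 rose (median -1.74), and of 13 fasciclin-like arabinogalactan proteins 10 fell and 1 rose (median -2.04). Of 60 SAUR-like genes 25 fell, 3 rose and 32 were not called (median -0.898). Of 23 tubulins 10 (43.5%) fell and 6 (26.1%) rose, the latter near the share over all genes. Of 27 kinesins 11 fell and 2 rose, and of 27 aquaporins 13 fell and 3 rose. Of 69 receptor-like kinases 41 fell and 4 rose, with a median of -1.71 (WT -0.791), and of 80 TIR-NBS-LRR immune receptor genes 44 fell and 4 rose, with a median of -1.78 (WT -0.213). The response was lower in the mutant for 23 receptor-like kinases and 29 TIR-NBS-LRR genes and higher for 0 and 2. Members of these receptor families can be near-identical copies that share reads.

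Of 39 translation initiation factors 22 rose and 2 fell, with a median of 1.44, and of 65 RNA helicases 31 rose and 5 fell, with a median of 1.27. Of 394 RING genes, which encode ubiquitin ligases and related proteins, 145 (36.8%) rose and 74 (18.8%) fell. Of 257 F-box genes 70 (27.2%) rose and 34 (13.2%) fell, the former near the 23.2% over all genes. Of 100 histone genes 33 rose and 19 fell.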
